A study of Mus musculus with 6 samples.

Results

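TGF-beta ligands, their receptors and the latent TGF-beta binding proteins were described here in Scf-GFP+ cells, marrow cells marked by their expression of stem cell factor. The family comprised 10 genes, taken by name from among 19938 genes with a value: the ligands Tgfb1, Tgfb2 and Tgfb3, the receptors Tgfbr1, Tgfbr2 and Tgfbr3, and the latent binding proteins Ltbp1, Ltbp2, Ltbp3 and Ltbp4. Each of the 10 had 1 row in the deposited table, and none shared its row with another gene. Expression was measured on 6 Affymetrix Mouse Gene 1.0 ST arrays, which read each transcript with probes placed along its length. The Scf-GFP+ group held 3 arrays of double-sorted cells from mice heterozygous for a green fluorescent protein knocked into the stem cell factor gene, Kitl. The whole bone marrow group held 3 arrays of sorted, unselected cells from wild-type mice. All mice were young adults on a C57BL/6 background, and each array carried amplified RNA of 5000 cells. Genotype and sorting therefore changed together with the cell population, and sex, as read from the transcripts below, changed with it in part. The labels call the aliquots independent but name no animals, so the p-values rest on the variation among these samples, which may in part be technical.

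TGF-beta is secreted as a latent complex, in which the mature ligand stays wrapped in its own propeptide, and that propeptide is commonly bound to a latent TGF-beta binding protein that tethers it to the extracellular matrix. Integrins and proteases release the ligand, which then assembles the type II receptor Tgfbr2 and the type I receptor Tgfbr1, and the type I receptor phosphorylates Smad2 and Smad3. Tgfbr3, also called betaglycan, is a co-receptor that presents ligand, above all the isoform made by Tgfb2. In mouse marrow, TGF-beta signalling is known to hold blood stem cells in quiescence, and the factor stored in bone matrix acts on bone-forming cells.

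Of the 10 genes, 6 were called higher in Scf-GFP+ cells, 1 was called lower and 3 were not called. A call required a limma adjusted p below 0.05 over all 19938 genes and a difference of at least 2-fold. By the same rule 9.01% of all genes were called higher and 7.89% lower, together 16.9%. The same 7 members passed the adjusted p alone, as did 27% of all genes in either direction. At a minimum of 4-fold, 4 members were called higher and, since Tgfb1 was 3.14-fold lower, 0 lower, against 3.8% and 3.7% of all genes. The median log2 difference of the 10 genes was 1.33, against -0.075 over all genes, where a positive value means higher in Scf-GFP+ cells. The arrays of the groups did not overlap for 8 of the 10, with 7 higher and 1 lower in Scf-GFP+ cells, against 45.4% of all genes without overlap in either direction (19% higher, 26.4% lower). The largest differences lay in a ligand (Tgfb3), the co-receptor (Tgfbr3) and a pair of binding proteins (Ltbp1 and Ltbp2), while the signalling receptors Tgfbr1 and Tgfbr2 were not called.

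**Figure D1:**
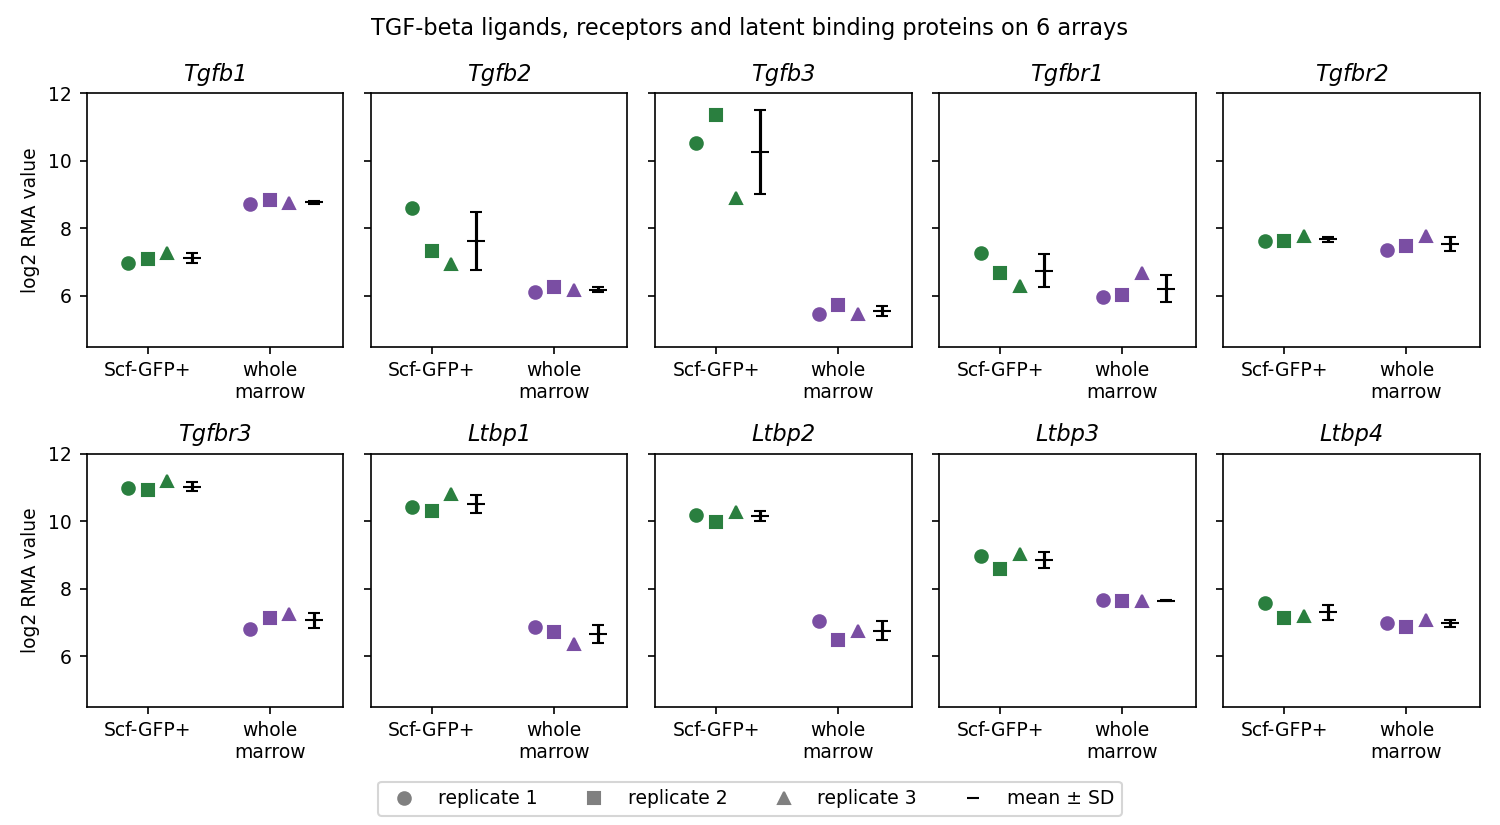
Each panel plots 1 gene, with the log2 RMA value on the vertical axis and the Scf-GFP+ arrays (green) left of the whole bone marrow arrays (purple); symbols mark replicates, and the black bar is the mean ± SD of 3 arrays. Tgfb1 alone lies lower in Scf-GFP+ cells, and Tgfb3 spreads over 2.45 log2 units between its Scf-GFP+ arrays.

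The arrays carried the transcripts that their labels call for, with 1 array and 1 pair of arrays standing apart. All 10 perivascular stromal markers examined, Kitl and Lepr among them, were called higher in Scf-GFP+ cells, against 9.01% of all genes. All 8 pan-haematopoietic markers, Ptprc among them, were called lower, against 7.89% of all genes. The reporter that marks Scf-GFP+ cells sits in Kitl, so the call of Kitl is no independent check. The mean log2 value of 10 neutrophil markers was 9.45 in Scf-GFP+ replicate 1, 6.10 and 6.30 in Scf-GFP+ replicates 2 and 3, and 11.97 to 12.07 in whole marrow. Xist is the RNA by which female cells silence an X chromosome. Its log2 values were 11.50 and 11.81 for the first pair of Scf-GFP+ replicates (1 and 2), 5.04 in Scf-GFP+ replicate 3, and 4.99 to 5.10 in whole marrow. Eif2s3y, a gene of the Y chromosome, measured 4.41 and 3.72 in Scf-GFP+ replicates 1 and 2. It measured 8.23 in Scf-GFP+ replicate 3 and 7.33 to 7.97 in whole marrow. By these transcripts Scf-GFP+ replicates 1 and 2 read as female and the other arrays as male. The Xist split below is thus a split by sex.

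Promoter sequence was examined because family members moved in opposite directions. RefSeq promoter windows on mouse build GRCm38.p6 were found for 8 of the 10 genes, not for Tgfb3 and Tgfbr3. For 4 of the 8 the window ended at the outermost annotated start of the gene, and 3 of these are shown, a gene called lower, a gene not called and a gene called higher in Scf-GFP+ cells. The fourth was that of Tgfbr2, which was not called. The lines give the 250 bases before the start, 5' to 3' on the gene's own strand, with the GC box GGGCGG on either strand in capitals (on the opposite strand it reads CCGCCC). Tgfb1 is at chr7:25686752-25687001 (plus strand), Tgfbr1 at chr4:47352972-47353221 (plus strand) and Ltbp3 at chr19:5740650-5740899 (plus strand).
Tgfb1: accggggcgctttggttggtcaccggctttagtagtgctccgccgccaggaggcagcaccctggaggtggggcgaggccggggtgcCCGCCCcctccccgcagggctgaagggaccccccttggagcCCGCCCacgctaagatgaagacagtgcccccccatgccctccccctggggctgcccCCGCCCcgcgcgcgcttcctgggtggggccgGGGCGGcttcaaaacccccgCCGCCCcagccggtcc
Tgfbr1: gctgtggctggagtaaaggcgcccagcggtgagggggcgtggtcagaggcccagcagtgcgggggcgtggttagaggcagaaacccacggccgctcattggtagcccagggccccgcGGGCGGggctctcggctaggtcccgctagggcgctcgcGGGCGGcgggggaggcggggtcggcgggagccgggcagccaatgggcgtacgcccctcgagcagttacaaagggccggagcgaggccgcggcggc
Ltbp3: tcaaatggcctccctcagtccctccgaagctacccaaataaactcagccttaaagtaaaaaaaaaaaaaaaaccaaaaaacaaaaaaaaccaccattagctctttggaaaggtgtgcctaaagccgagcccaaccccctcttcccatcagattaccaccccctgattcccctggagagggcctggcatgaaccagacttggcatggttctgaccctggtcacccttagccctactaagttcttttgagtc
The Tgfb1 window held 5 GC boxes and was 75.2% G and C, the Tgfbr1 window held 2 and was 74.8% G and C, and the Ltbp3 window held 0 and was 47.2% G and C. Among the other 5 windows, Ltbp4 (not called) held 3 GC boxes, Ltbp2 (called higher) held 2, and Tgfbr2 (not called), Tgfb2 and Ltbp1 (both called higher) held 0, so that windows with and without a GC box occurred both among members called higher and among those not called. Over 27024 promoter windows of this length, 33% held a GC box, and the median share of G and C was 52%. The TATA box TATAAA, present in 13% of all windows, and the SMAD box CAGACA, present in 17.1%, were each found in 1 of the 8 members, Tgfb2. The AP-1 site TGANTCA (6.85% of all windows) was found in none of the 8. All motifs were searched on both strands, and a match is a run of letters and not evidence of binding.

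The ligands did not move together. Tgfb1 was lower and Tgfb3 much higher in Scf-GFP+ cells, and Tgfb2 was higher by a call that was lost in 6 of 14 alternatives. Tgfb1 encodes the isoform that most blood cells and platelets make. Its log2 values were 6.99, 7.10 and 7.27 in Scf-GFP+ replicates 1, 2 and 3, against 8.72, 8.83 and 8.77 in whole marrow. Every Scf-GFP+ array lay below every whole marrow array by more than the range within either group. The log2 difference was -1.65 ± 0.11 SE (limma adjusted p = 9.31e-05, with n = 3 arrays in each group), so that the level was 3.14-fold lower. In bulk samples, fewer cells that make a transcript and less of it per cell cannot be told apart.

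Most markers of blood lineages that were called moved with Tgfb1. Counts called lower in Scf-GFP+ cells were 8 of 8 erythroid, 7 of 7 B cell, 8 of 10 neutrophil, 5 of 10 macrophage and monocyte, 4 of 7 T and NK cell, and 1 of 7 megakaryocyte and platelet markers (2 without Scf-GFP+ replicate 1 or whole marrow replicate 3, with the term for the Xist split and under both other scalings). The neutrophil count was 10 without Scf-GFP+ replicate 1, 6 without any one of the other arrays and 9 without the dimmest 30% of genes. With the term for the Xist split, the neutrophil count was 7 and the B cell count 6. Under that term the group difference rests on Scf-GFP+ replicate 3 alone. The shares over all genes were 7.89% called lower and 9.01% called higher. In these marker lists 1 marker was called higher, the macrophage receptor Mertk, which takes part in the uptake of dying cells. Mertk measured 9.11, 7.59 and 8.88 in Scf-GFP+ replicates 1, 2 and 3, against 5.48, 5.64 and 5.35 in whole marrow, 8.20-fold higher (limma adjusted p = 0.00148). Mean log2 levels over the megakaryocyte and platelet list were 6.26 to 6.36 in Scf-GFP+ cells and 7.06 to 7.62 in whole marrow. Those of the erythroid list were 6.20 to 6.48 in Scf-GFP+ cells and 10.19 to 10.67 in whole marrow. The part of these lineages in the Tgfb1 difference was not tested. Scf-GFP+ replicate 1, whose neutrophil markers were far above those of the other Scf-GFP+ arrays, had the lowest Tgfb1 value of the 6 arrays. That is 1 array, and the Tgfb1 values of the Scf-GFP+ arrays ranged over only 0.28 log2 units.

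Tgfb3 encodes an isoform of mesenchymal and epithelial tissues. It measured 10.54, 11.36 and 8.91 in Scf-GFP+ replicates 1, 2 and 3, against 5.48, 5.73 and 5.46 in whole marrow. All Scf-GFP+ arrays lay more than 3 log2 units above the whole marrow arrays, whose values were close to the first quartile of an array (5.193 to 5.312). The log2 difference was 4.72 ± 0.57 SE, 26.3-fold (limma adjusted p = 0.00121). It was 5.40 without Scf-GFP+ replicate 3, 4.17 without replicate 2 and 4.59 without replicate 1. The Scf-GFP+ arrays disagreed on its size, with an SD of 1.25 (n = 3), larger than that of 99.5% of genes in this group. With a term for the Xist split, under which the group difference rests on Scf-GFP+ replicate 3 alone, the log2 difference was 3.36 (limma adjusted p = 0.00180, over all 14 alternatives 0.000103 to 0.00783).

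Tgfb2 encodes the isoform that depends most on betaglycan. It measured 8.60, 7.33 and 6.95 in Scf-GFP+ replicates 1, 2 and 3, against 6.11, 6.26 and 6.19 in whole marrow. The groups did not overlap, but the Scf-GFP+ arrays spread over 1.65 log2 units and the whole marrow arrays over 0.15. Tgfb2 was thus higher by 1.44 ± 0.40 SE, 2.72-fold (limma adjusted p = 0.0386). The call was lost without Scf-GFP+ replicate 1, where the difference was 0.96 and under 2-fold (limma adjusted p = 0.00901), and without Scf-GFP+ replicate 2 (limma adjusted p = 0.0622). Leaving out a whole marrow array also ended the call (limma adjusted p = 0.108, 0.0883 and 0.102 without replicate 1, 2 or 3). There the difference itself hardly moved, at 1.40, 1.48 and 1.44. With the term for the Xist split the difference was 0.76, under 2-fold. Over the 14 alternatives the limma adjusted p ran from 0.00901 to 0.363.

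Other cell type markers also differed between the Scf-GFP+ arrays. The mean over 10 endothelial markers was 6.91, 6.73 and 6.41 in Scf-GFP+ replicates 1, 2 and 3, so that the highest and lowest arrays were those of Tgfb2, against 6.12 to 6.28 in whole marrow. The mean over 6 smooth muscle and pericyte markers was 7.32, 7.52 and 7.10 in Scf-GFP+ replicates 1, 2 and 3, so that the highest and lowest arrays were those of Tgfb3, against 6.36 to 6.50 in whole marrow. The groups' difference was called higher for 2 of the endothelial markers (1 if any array other than Scf-GFP+ replicate 3 was left out, or with the term for the Xist split) and for 2 of the smooth muscle and pericyte markers. The share called higher over all genes was 9.01%. Lists of blood cells matched in the same way. The pan-haematopoietic mean was 6.97, 6.07 and 6.04 in Scf-GFP+ replicates 1, 2 and 3, with the highest and lowest arrays of Tgfb2. The erythroid mean was 6.25, 6.48 and 6.20, with the highest and lowest arrays of Tgfb3. With 3 arrays such matches of order are easily met. The part of any of these markers in the spread of Tgfb2 and Tgfb3 was not tested.

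**Figure D2:**
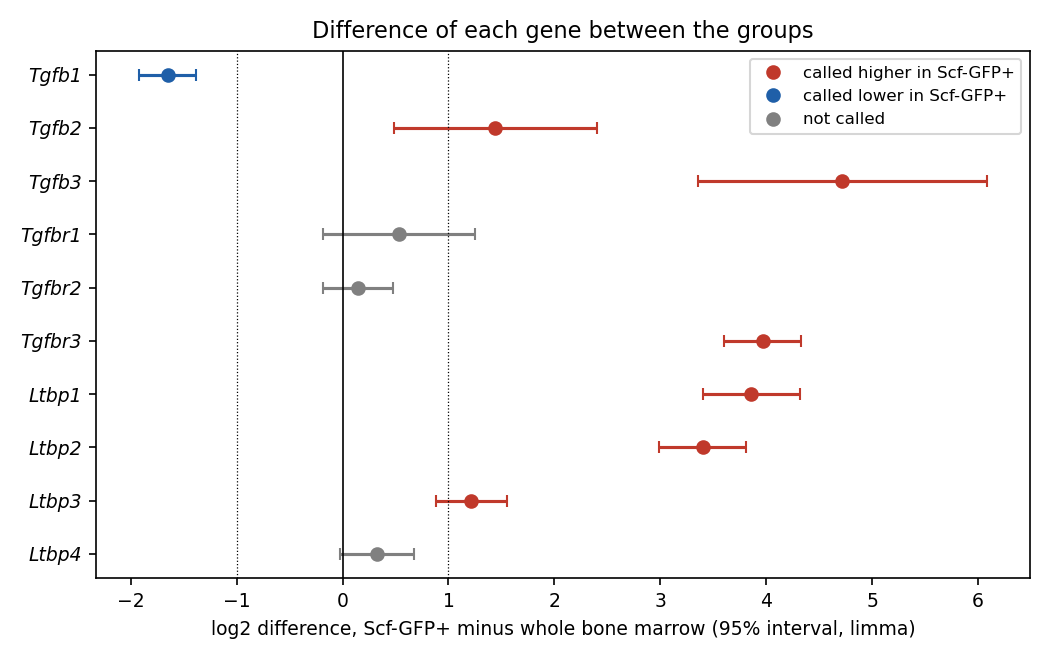
Points give the log2 difference, Scf-GFP+ minus whole bone marrow, of each gene with its 95% interval from limma; dotted lines mark 2-fold, and colour marks the call. Tgfb1 lies at -1.65, the intervals of Tgfbr1, Tgfbr2 and Ltbp4 include 0, and Tgfb3, Tgfbr3, Ltbp1 and Ltbp2 lie above 3.

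Among the receptors, only the co-receptor Tgfbr3 was called. Tgfbr3 measured 10.99, 10.91 and 11.19 in Scf-GFP+ replicates 1, 2 and 3, against 6.81, 7.13 and 7.25 in whole marrow. Its arrays varied by at most 0.45 log2 units within a group, and the groups lay well apart. On the log2 scale it was higher by 3.97 ± 0.15 SE, 15.7-fold (limma adjusted p = 9.1e-06). It stayed between 3.84 and 4.13 over the 14 alternatives.

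Tgfbr1, the type I receptor kinase, measured 7.28, 6.67 and 6.30 in Scf-GFP+ replicates 1, 2 and 3, against 5.96, 6.02 and 6.68 in whole marrow. The groups overlapped, since whole marrow replicate 3 lay above Scf-GFP+ replicates 2 and 3. The log2 difference was 0.53 with a 95% interval from -0.19 to 1.25 (limma adjusted p = 0.248), so that a change of 2-fold upward lies within the interval. Tgfbr2, the type II receptor that binds the ligand first, measured 7.64, 7.64 and 7.77 in Scf-GFP+ cells, against 7.36, 7.47 and 7.78 in whole marrow. Whole marrow replicate 3 lay above all Scf-GFP+ arrays. Its log2 difference was 0.14 with an interval from -0.19 to 0.48 (limma adjusted p = 0.489), which holds no 2-fold change. Without each array in turn, the difference of Tgfbr1 ran from 0.27 to 0.76 and that of Tgfbr2 from 0.06 to 0.27, with no call. With the term for the Xist split the difference of Tgfbr1 was 0.08 (limma adjusted p = 0.919, over the alternatives 0.129 to 0.919).

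The latent binding proteins were called higher in 3 of 4 cases, against 9.01% of all genes. Ltbp1 and Ltbp2 differed most. Ltbp1, which binds the latent complex of each isoform and carries it into the matrix, measured 10.42, 10.32 and 10.80 in Scf-GFP+ replicates 1, 2 and 3, against 6.88, 6.72 and 6.36 in whole marrow. The log2 difference was 3.86 ± 0.19 SE, 14.5-fold (limma adjusted p = 2.14e-05). Ltbp2, which shares the domain plan of the family but does not bind latent TGF-beta and takes part in elastic microfibrils, measured 10.20, 9.98 and 10.29 in Scf-GFP+ cells, against 7.04, 6.47 and 6.76 in whole marrow. It was higher by 3.40 ± 0.17 SE, 10.5-fold (limma adjusted p = 2.33e-05). For both genes the gap between the groups was several times the range within either group.

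Ltbp3, a carrier of latent TGF-beta that mouse bone needs for normal growth, measured 8.97, 8.59 and 9.03 in Scf-GFP+ cells, against 7.66, 7.65 and 7.64 in whole marrow. The groups did not overlap, and the log2 difference was 1.22 ± 0.14 SE, 2.32-fold (limma adjusted p = 0.000999). Ltbp4, which assembles elastic fibres and binds latent TGF-beta weakly, measured 7.57, 7.13 and 7.21 in Scf-GFP+ cells, against 6.98, 6.88 and 7.07 in whole marrow. Its arrays did not overlap either, but the log2 difference was 0.33 with an interval from -0.02 to 0.67 (limma adjusted p = 0.154), and it was not called. The upper end of that interval is below 2-fold.

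**Figure D3:**
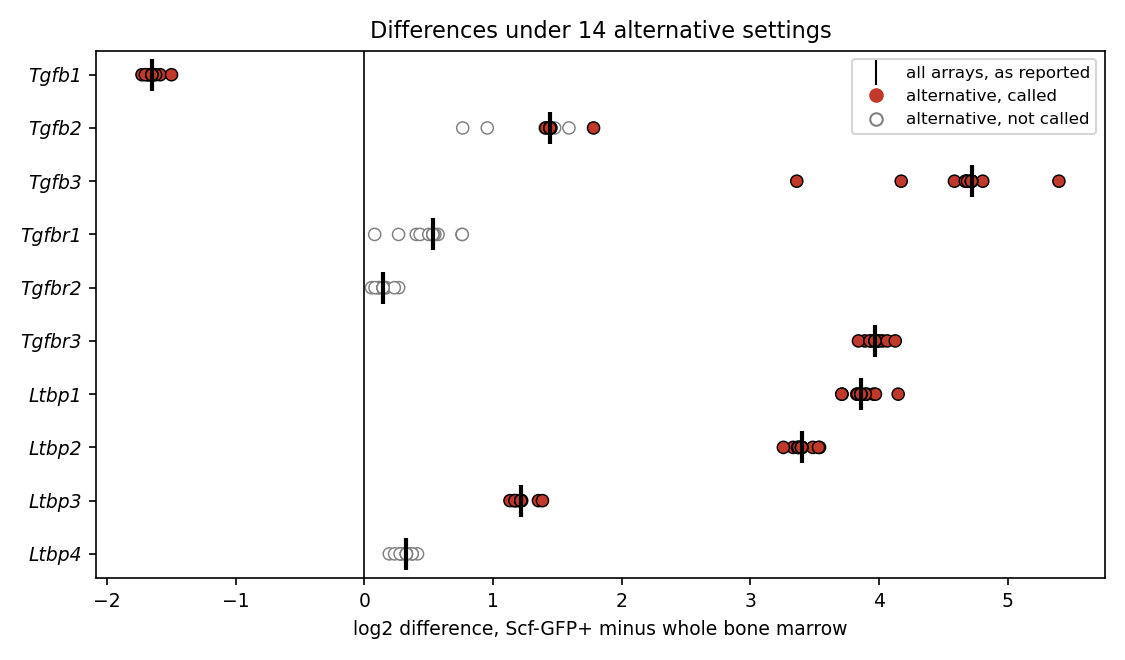
Each circle is the log2 difference, Scf-GFP+ minus whole bone marrow, of a gene under 1 of 14 alternative settings, filled where it was called, and the black tick is the value with all arrays. Tgfb2 is not called in 6 of its 14 alternatives, while the circles of each other gene are all filled or all open.

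For some members the genes with the most similar course over the 6 arrays were found by root mean square distance of log2 values. Each gene was first centred on its own mean. Unnamed transcript models (symbols with Rik, or with Gm or LOC and a number) were left out of the ranking. The nearest genes to Tgfb1 were Pask, Ddx39a and Stard4 at distances of 0.073, 0.090 and 0.091. Those nearest to Tgfbr3 were Fkbp9, Ddit4l and C6 at 0.115, 0.127 and 0.163, and those nearest to Ltbp1 were Mpdz, Calhm5 and Loxl1 at 0.110, 0.123 and 0.130. Nearest to Tgfb2 were Kcne4, Tsga10 and Unc13b at 0.116, 0.123 and 0.127. Among the genes ranked, the nearest to Tgfb3 was Ptn at 0.189, which shared its dip in Scf-GFP+ replicate 3. Cxcl9 and Plod2 followed at 0.356 and 0.404. With 2 groups of 3 arrays, a gene with a like group difference is near by construction.

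Around the family, 62 listed pathway genes had a value, and Fbn1 and Cdkn1a were not analysed here. Of 18 genes that store or activate latent TGF-beta, 5 were called higher, 4 lower and 9 neither, with a median log2 difference of 0.03. Over all genes, 9.01% were called higher and 7.89% lower, and the median was -0.075. Integrin chains were among the higher ones. Itgav, the alpha chain of the integrins that pull ligand out of its latent complex, was higher by 2.45 ± 0.17 SE, its partner Itgb5 by 2.66 ± 0.41 and Itgb1 by 1.80 ± 0.12, while the differences of the partners Itgb8 (-0.04 ± 0.11), Itgb6 (-0.03 ± 0.11) and Itgb3 (-0.40 ± 0.26) were not called. With the term for the Xist split Itgb3 differed by -0.98, just under 2-fold (limma adjusted p = 0.0214, over the alternatives 0.0214 to 0.684). The membrane metalloproteinase Mmp14 was higher by 3.59 ± 0.11 and the gelatinase Mmp2 by 1.90 ± 0.39 (1.44 and not called with the term for the Xist split, limma adjusted p = 0.145, over the alternatives 0.000850 to 0.145).

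Nrros, a leucine-rich repeat protein that holds latent TGF-beta on myeloid cells, was 9.93-fold lower in Scf-GFP+ cells. It measured 5.90, 5.78 and 5.42 in Scf-GFP+ cells, against 8.97, 9.10 and 8.96 in whole marrow (log2 difference -3.31 ± 0.15 SE, limma adjusted p = 1.52e-05). The related anchor Lrrc32, known from platelets and regulatory T cells, differed by 0.21 ± 0.17 and was not called. Mmp9, Fn1 (fibronectin) and Thbs1, a thrombospondin that can activate latent TGF-beta, were the other genes called lower, with log2 differences of -4.15 ± 0.46, -2.91 ± 0.13 and -1.79 ± 0.20. Mmp9 is a product of neutrophils, and it measured 8.02 in Scf-GFP+ replicate 1, 6.78 and 6.10 in replicates 2 and 3, and 10.94 to 11.35 in whole marrow (log2 difference -5.01 with the term for the Xist split).

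Of 11 TGF-beta-binding proteins and co-receptors, 6 were called higher and 0 lower (over all genes 9.01% and 7.89%), and the median log2 difference was 1.02. By limma 1 of them, Bambi, was lower at an unadjusted p below 0.05. The proteoglycans Dcn (decorin) and Bgn (biglycan), which bind TGF-beta in the matrix, differed most, by 6.05 ± 0.17 SE and 5.86 ± 0.16. The secreted protease Htra1 was higher by 3.61 ± 0.30 and vasorin (Vasn), a membrane protein that traps TGF-beta, by 2.30 ± 0.33. Eng (endoglin), the co-receptor best known from endothelium, was higher by 1.44 ± 0.16, while its partner, the type I receptor Acvrl1, differed by 0.07 ± 0.15 and was not called. Htra3 was higher by 1.02 ± 0.10 and fell just under 2-fold without whole marrow replicate 3 (0.995, limma adjusted p = 0.00273, over the alternatives 0.000378 to 0.00576) and under both other scalings of the arrays (0.991 and 0.990). Aspn (asporin), at 0.79 ± 0.30, was called higher without Scf-GFP+ replicate 3 (1.03, limma adjusted p = 0.0480) or without whole marrow replicate 2 (1.07, limma adjusted p = 0.0337), and its limma adjusted p ran from 0.0337 to 0.645 over the alternatives.

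**Figure D4:**
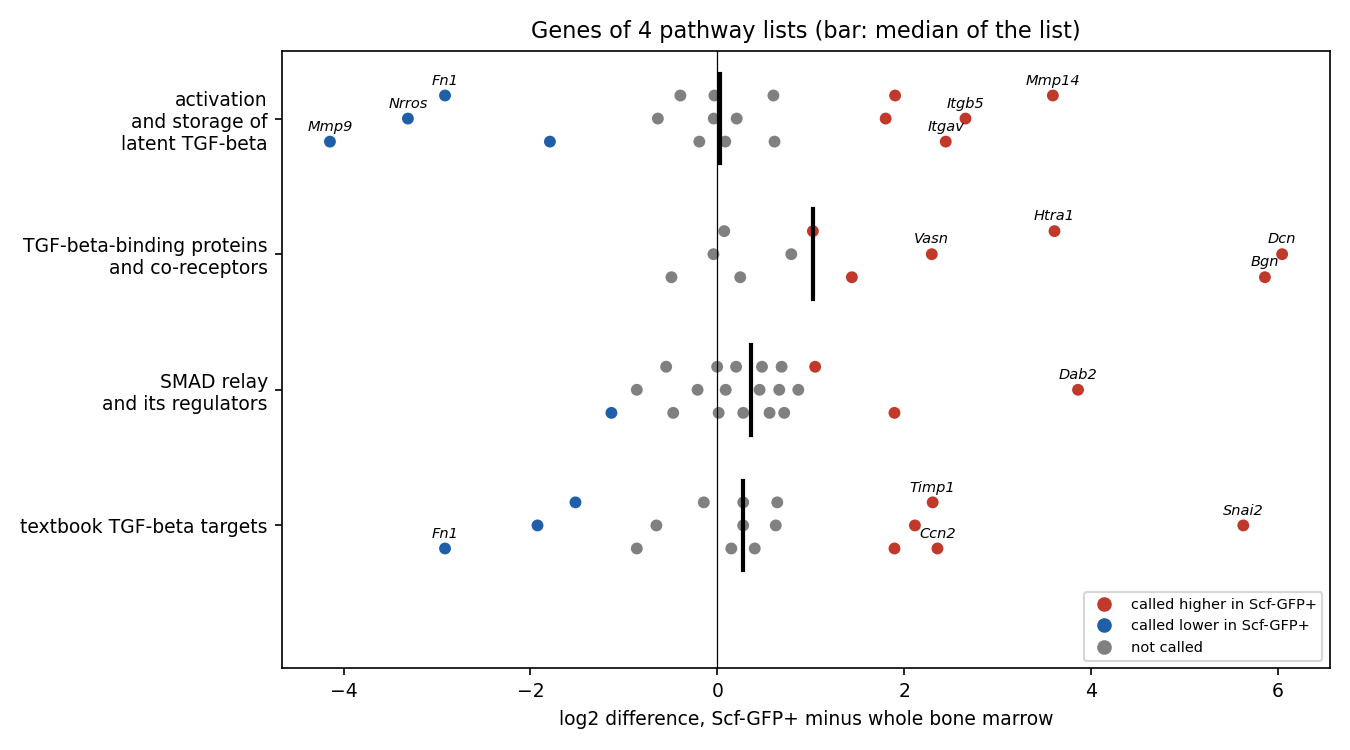
Each point is a gene of 1 of 4 pathway lists, placed by its log2 difference, Scf-GFP+ minus whole bone marrow, and coloured by its call; the bar is the median of the list, and called genes beyond 2.2 log2 units are named. The activation list spreads to both sides around a median of 0.03, and most SMAD genes lie within 1 log2 unit of 0.

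The intracellular relay was called at a share near that of all genes. Of 20 SMAD genes and regulators, 3 were called higher, 1 lower and 16 neither, with a median difference of 0.36, while 9.01% of all genes were called higher and 7.89% lower. Smad2, which Tgfbr1 phosphorylates, measured 9.42, 9.44 and 9.40 in Scf-GFP+ cells, against 9.74, 9.45 and 9.08 in whole marrow, and so differed by 0.00 ± 0.17 SE. Smad3 differed by -0.21 ± 0.26, the shared partner Smad4 by 0.72 ± 0.12 (limma adjusted p = 0.00500, under 2-fold) and the inhibitory Smad7 by 0.28 ± 0.11 (limma adjusted p = 0.112). The endocytic adaptor Dab2, which links receptors to SMADs, was higher by 3.86 ± 0.32 (1.96 as the mean of its rows) and Pmepa1, a TGF-beta target that dampens the signal, by 1.90 ± 0.29 (2.57 with the term for the Xist split).

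The other calls of the relay were fragile. Zfyve9, which anchors Smad2 and Smad3 at the receptor, was higher by 1.05 ± 0.30 (limma adjusted p = 0.0419) and lost the call in 8 of 13 alternatives. Without Scf-GFP+ replicate 1 its limma adjusted p was 0.0927, without Scf-GFP+ replicate 2 its difference was 0.73, and without whole marrow replicate 1, 2 or 3 its limma adjusted p was 0.123, 0.0965 and 0.0929. The repressor Tgif1 was lower, with a log2 difference of -1.13 ± 0.31 (limma adjusted p = 0.0361) and lost the call in 7 of 14 alternatives. Its limma adjusted p was 0.0846, 0.0742 and 0.0974 without Scf-GFP+ replicate 1, 2 or 3 and 0.0549 without whole marrow replicate 1, and its difference was -0.77 without whole marrow replicate 3. Without whole marrow replicate 1, Smurf2 was called higher (1.07, limma adjusted p = 0.0101) and Skil lower (-1.08, limma adjusted p = 0.00801). Over their alternatives the limma adjusted p ran from 0.00994 to 0.387 for Zfyve9, 0.0153 to 0.131 for Tgif1, 0.0101 to 0.167 for Smurf2 and 0.00801 to 0.198 for Skil.

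Genes that TGF-beta is known to induce, mostly in fibroblasts and epithelial cells, were mixed. Of 17 with a value, 5 were called higher, 3 lower and 9 neither, with a median difference of 0.28, against 9.01% called higher and 7.89% lower over all genes. Snai2, a transcription factor of mesenchymal cells, was higher by 5.63 ± 0.32 SE, Ccn2 (connective tissue growth factor) by 2.36 ± 0.44, Timp1, an inhibitor of metalloproteinases, by 2.31 ± 0.49 and Col1a2 by 2.12 ± 0.10, and the fifth was Pmepa1. With the term for the Xist split the differences were 3.17 for Ccn2 and 3.22 for Timp1. Timp1 measured 7.28, 8.63 and 9.32 in Scf-GFP+ replicates 1, 2 and 3, against 5.85 to 6.29 in whole marrow. Lower were Fn1, the matrix protein Tgfbi (log2 difference -1.93 ± 0.27) and the AP-1 subunit Junb (-1.52 ± 0.22). Acta2, at -0.65 ± 0.34, was called lower without Scf-GFP+ replicate 2 (-1.02, limma adjusted p = 0.0250) and with the term for the Xist split (-1.37, limma adjusted p = 0.0311), and its limma adjusted p ran from 0.0250 to 0.438 over the alternatives. These lists share members: Fn1 stands in the activation and target lists, and Smad7, Skil and Pmepa1 in the relay and target lists.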

How the data were processed

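The deposited table held log2 values for 6 arrays and 28940 rows, used as deposited. RMA, affy and limma are named in the submitters' processing notes, with no version or role given. Of the rows, 21789 had a single gene symbol in the platform annotation, updated by Entrez identifier with RefSeq (GRCm38.p6). The row with the highest mean stood for each of 19938 genes.

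Groups were compared with limma 3.58.1 (lmFit, eBayes) in R 4.3.3, two-sided, without covariates, with Benjamini-Hochberg adjustment over all genes, and the fit was tested on simulated data. RMA gives no detection call, levels of different genes are not compared, and 3 arrays per group limit the precision. The family and the lists were chosen with earlier results of these data known. Named genes were the 10 members, up to 4 called genes per direction and list with the largest differences, regulators fixed by name, the 3 genes nearest to each of 5 members, and genes that checked the arrays. Others, chosen after their values were seen, are named where a count or a changed call needs them. Same-numbered arrays' deviations from their group means correlated at -0.063, -0.022 and 0.066, so the numbers were not treated as pairs. Alternatives were each array left out, a replicate block, a term for the Xist split, 2 scalings, a filter on dim genes, trend with robust eBayes, 2 rules for genes with several rows, and 2 fold minimums.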

Additional observations from a re-analysis of the deposited data

How the results depend on the processing

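Of the 10 family members, 9 kept their direction and their side of the threshold in all 14 alternatives, and Tgfb2 kept its direction but lost its call in 6. The number of members called higher was 5 to 6 without each array in turn, 5 with the term for the Xist split and 4 at a minimum of 4-fold, and 1 was called lower in each alternative except at 4-fold, where limma called 0 because Tgfb1 differed by 3.14-fold. With the replicate number as a block, 1775 genes were called higher and 1563 lower, and 6 members higher and 1 lower, and the block changed the call of no member. Over all genes, 1796 were called higher and 1574 lower. These became 2758 and 2635 with no fold minimum, 758 and 738 at a minimum of 4-fold, and 1618 to 1822 and 1448 to 1560 without each array in turn. Each member had a single row, so its value was the same under every rule for genes with several rows. Arrays can lose resolution at low signal, and the whole marrow values of Tgfb3 lay just above the first quartile. Whether this limits the size of the Tgfb3 difference was not tested.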
